A study of Mus musculus with 9 samples.

Results

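Chemokines and cytokines of the myeloid lineage were examined at the RNA level as 9 genes of the 55401 in the deposited tables. These were the CC chemokines *Ccl3*, *Ccl4*, *Ccl6* and *Ccl9*, the CXC chemokine *Cxcl2*, and the cytokines *Tnf*, *Il12a*, *Il1b* and *Tgfb1*. The genes were picked by name with their differences between the groups of these libraries already known. Their levels, fold changes and fits are therefore given as a description and not as evidence of a difference. No p-value is printed for any of them.

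The cells were H9M cells, a mouse model of acute myeloid leukemia made by gammaretroviral expression of *Meis1* and *Hoxa9* in lineage-negative bone marrow cells of C57BL/6-Ly5.1 mice. All groups shared this transformation and a lentiviral FGB-D vector that carries a color code of fluorescent proteins. A mix of color-coded clones was transplanted into lethally irradiated C57Bl6/J mice, and thawed splenocytes with the phenotype CD45.1+, EGFRt-bright, cKit+ and CD11b-dim or negative were sorted by color code for RNA-Seq. Mouse #15, which was sacrificed before leukemia had developed, gave the pre-malignant samples, 1 each of the minor clones 33BC-D, 38BC-D and, in addition, 43BC-D. These clones were sampled again as de novo expanded at the leukemic endpoint, 38BC-D in mouse #13, 43BC-D in mouse #14 and 33BC-D in mouse #17. Clone 34BC-D, sampled at the endpoint of mice #13, #14 and #17, made up the stably expanded group. The age and sex of the recipients were not given in the sources used here.

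Each group had 3 libraries. Because all pre-malignant libraries came from 1 mouse and all stably expanded libraries from 1 clone, a difference between groups cannot be told apart from a difference of that mouse or that clone. The p-values given for other genes measure the spread between these libraries only. The labels tied each library to a group but not to 1 clone or mouse within it, so the library numbers 1 to 3 below are names without further meaning.

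Chemokines are small secreted proteins that attract leukocytes through G protein-coupled receptors. *Ccl3* and *Ccl4* encode the macrophage inflammatory proteins 1 alpha and 1 beta, and CCL3 binds CCR1. *Ccl6* and *Ccl9* are rodent CC chemokines whose products act through CCR1, and *Cxcl2* encodes a neutrophil attractant that binds CXCR2. *Tnf* and *Il1b* encode the inflammatory cytokines TNF and interleukin-1 beta, *Il12a* encodes the p35 subunit of interleukin-12, and *Tgfb1* encodes a latent cytokine that restrains the cycling of hematopoietic progenitors. Monocytes, macrophages and neutrophils are the best known sources of most of these transcripts, and many of them are induced by NF-kappaB.

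The promoters of *Ccl3*, *Cxcl2* and *Ccl9* are shown because *Ccl3* and *Cxcl2* had their highest levels in the pre-malignant libraries, whereas *Ccl9* had its highest levels in the de novo expanded ones. Each line gives the 250 bases before the RefSeq transcription start in GRCm38.p6, read 5′ to 3′ on the strand of the gene. They lie at chr11:83649379-83649628 on the minus strand for *Ccl3*, at chr5:90903649-90903898 on the plus strand for *Cxcl2* and at chr11:83578637-83578886 on the minus strand for *Ccl9*. Capitals mark matches on either strand to the kappaB consensus, to the AP-1 motif TGANTCA or to the TATA box TATAAA.
Ccl3: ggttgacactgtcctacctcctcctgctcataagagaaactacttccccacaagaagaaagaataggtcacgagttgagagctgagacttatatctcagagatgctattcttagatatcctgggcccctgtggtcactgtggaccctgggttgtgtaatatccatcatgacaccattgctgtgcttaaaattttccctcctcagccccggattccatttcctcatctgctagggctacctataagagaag
Cxcl2: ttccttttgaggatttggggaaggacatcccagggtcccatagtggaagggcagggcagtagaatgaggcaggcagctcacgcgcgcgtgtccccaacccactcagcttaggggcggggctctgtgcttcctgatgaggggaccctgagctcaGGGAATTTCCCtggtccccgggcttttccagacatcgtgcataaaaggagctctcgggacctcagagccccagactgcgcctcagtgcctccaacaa
Ccl9: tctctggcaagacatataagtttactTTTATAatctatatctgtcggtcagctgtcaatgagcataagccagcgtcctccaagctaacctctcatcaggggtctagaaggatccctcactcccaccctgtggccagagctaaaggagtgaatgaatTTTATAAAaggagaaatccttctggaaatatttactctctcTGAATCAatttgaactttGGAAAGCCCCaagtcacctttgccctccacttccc
The *Ccl3* window held none of the 3 motifs. The *Cxcl2* window held 2 overlapping kappaB matches, 97 and 96 bases before the start. The *Ccl9* window held a kappaB match 35 bases before the start, an AP-1 match at 53 bases, and TATA box matches at 224, 94 and 92 bases, the last 2 of which overlap on opposite strands. Over the 8 members found among the RefSeq promoters, a kappaB match was present in 3 (*Cxcl2*, *Ccl9* and *Tgfb1*), an AP-1 match in 1 (*Ccl9*) and a TATA box match in 3 (*Ccl9*, *Tnf* and *Il1b*). Over the promoters of 27025 genes in windows of the same length, 7.01% held a kappaB match, 6.87% an AP-1 match and 13.0% a TATA box match. A match describes letters of the window and no binding was measured. *Ccl4* was not found among these promoters.

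The libraries held 10379739 to 15551196 reads on genes, and a level is given below as CPM, the counts of a gene per 1000000 reads on genes. Of the genes for the sort markers, *Kit* was at 142 to 287 CPM and *Itgam*, which encodes CD11b, at 27.8 to 85.7 CPM. All libraries came from sorted cells, so these levels cannot show how well the sort worked. The de novo expanded library 3 stood apart from the other 2 of its group, with 15796 CPM of the myeloperoxidase gene *Mpo* against 1637 and 2658 CPM. Fold changes of members that moved by over 1.5 times without this library are also given without it. Among lists of marker genes for other cell types, the summed level of 10 mature neutrophil genes was 179 to 219 CPM in the pre-malignant, 149 to 559 CPM in the de novo expanded and 527 to 4252 CPM in the stably expanded libraries, and 4 of the 7 tested genes of this list passed the test as higher in stably expanded than in pre-malignant libraries. Its defining marker *Ly6g* stayed at 0 to 1.08 CPM. The sum of 12 macrophage genes overlapped between the groups, at 285 to 382, 224 to 331 and 269 to 349 CPM, and 1 of its 5 tested genes passed the test, *Csf1r*, the receptor gene for macrophage colony-stimulating factor, as lower in stably expanded than in pre-malignant libraries. *Csf1r* was 97.6 to 160.0 CPM in the pre-malignant, 12.5 to 83.8 CPM in the de novo expanded and 29.1 to 56.9 CPM in the stably expanded libraries, whereas *C1qa*, *C1qb*, *Marco* and *Siglec1* of the same list stayed under 1 CPM in every library. Of the 5 tested macrophage genes, 3 were lower and 2 higher in stably expanded than in pre-malignant libraries. Besides *Csf1r*, the log2 fold changes were 2.03 for *Vcam1* (SE 0.63, adjusted p = 0.0729 in limma), 0.06 for *Adgre1*, -0.17 for *Cd68* and -2.09 for *Mrc1*. *Vcam1* was 12.4 to 100 CPM in the pre-malignant and 77.4 to 141 CPM in the stably expanded libraries. The sum of 8 B cell genes was 217 to 262, 76.9 to 208 and 86.9 to 104 CPM. Of its 8 tested genes, 7 were lower in stably expanded than in pre-malignant libraries, and 4 of them passed the test. The sum of 20 immediate early genes, which cells induce within minutes of a stimulus or of handling, was 3265 to 3629 CPM in the pre-malignant, 1734 to 2213 CPM in the de novo expanded and 1130 to 2444 CPM in the stably expanded libraries. All 18 tested genes of that list were lower in stably expanded than in pre-malignant libraries and 7 passed the test. Over all 13968 genes tested in that comparison, 2.75% passed the test and 49.5% were lower. The part of these lists in the results below was not tested. In such sorted bulk samples, fewer cells of a type and less RNA per cell cannot be told apart.

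Compared per length of transcript, as CPM per kilobase (RPKM), the members spanned a wide range. *Tgfb1* had the highest mean over the 9 libraries at 71.1 RPKM, followed by *Ccl3* at 48.8 RPKM and *Ccl9* at 38.3 RPKM. *Il12a* followed at 12.3 RPKM, *Tnf* at 7.71 RPKM and *Ccl4* at 7.21 RPKM. *Cxcl2* at 0.801 RPKM, *Ccl6* at 0.720 RPKM and *Il1b* at 0.0924 RPKM were transcripts of low level. The ranges over the 9 libraries overlapped for each pair of neighbours in this order except *Ccl4* and *Cxcl2*, where the lowest library of *Ccl4* (2.47 RPKM) was above the highest of *Cxcl2* (2.38 RPKM). The order differed between the groups: *Ccl3* stood near *Tgfb1* in the pre-malignant group (74.0 ± 7.52 against 77.9 ± 6.01 RPKM, SD, n = 3), whereas *Ccl9* was above *Ccl3* in the de novo expanded group (55.5 ± 7.20 against 41.1 ± 17.8 RPKM, SD, n = 3).

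**Figure D1:**
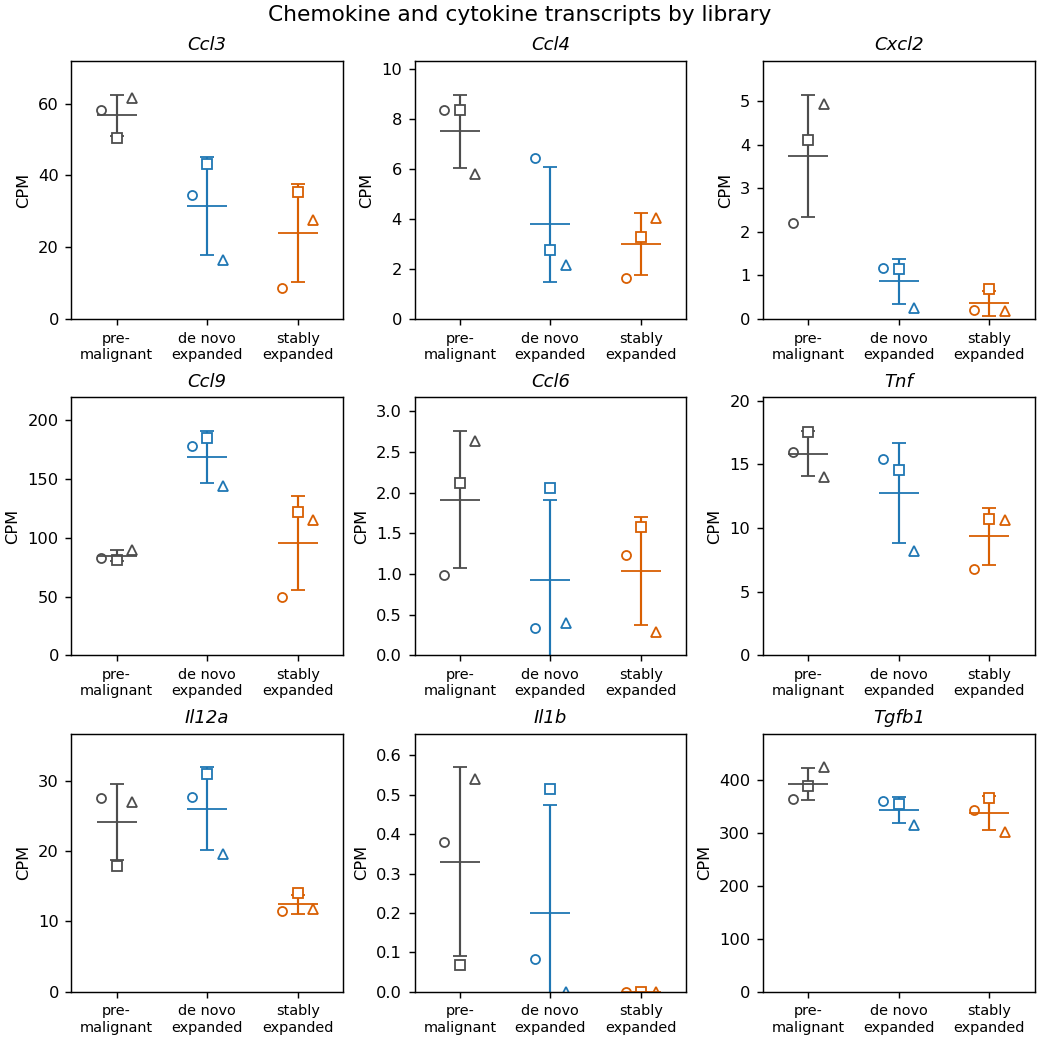
CPM of the 9 chemokine and cytokine genes in each library, by group. Open circles, squares and triangles are libraries 1, 2 and 3 of a group, horizontal bars are means and error bars are SD (n = 3), cut at 0 where they reach below it. Every axis starts at 0 and has its own range. The 3 pre-malignant libraries lie above the 6 others for *Ccl3* and *Cxcl2*, and the 3 de novo expanded libraries lie above the 6 others for *Ccl9*.

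*Ccl3*, the more abundant of the inflammatory CC chemokines, was highest in the pre-malignant cells. Its level was 58.2, 50.3 and 61.5 CPM in pre-malignant libraries, 34.5, 43.3 and 16.5 CPM in de novo expanded libraries and 8.74, 35.4 and 27.6 CPM in the stably expanded libraries. All 6 leukemic libraries lay below the 3 pre-malignant ones, while the leukemic groups overlapped with each other. The log2 fold change of normalized counts was -0.94 (SE 0.32) in de novo expanded over pre-malignant, -1.46 (SE 0.39) in stably expanded over pre-malignant and -0.50 (SE 0.56) in stably over de novo expanded libraries. The highest library was 2.62 times the lowest in the de novo expanded and 4.05 times in the stably expanded group, against 1.22 times in the pre-malignant one. The pre-malignant libraries came from 1 mouse and those of each leukemic group from different mice. A wider spread in leukemic cells can therefore not be told apart from a spread between mice. Without de novo expanded library 3 the first fold change was -0.54 and the third -0.90, and without stably expanded library 1 the second was -0.85.

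*Ccl4*, which lies next to *Ccl3* and encodes the other macrophage inflammatory protein, had the same order of group means at a lower level. It measured 8.35, 8.35 and 5.81 CPM in the pre-malignant, 6.43, 2.77 and 2.16 CPM in the de novo expanded and 1.63, 3.29 and 4.05 CPM in the stably expanded libraries. The stably expanded libraries all lay below the pre-malignant ones, with a log2 fold change of -1.38 (SE 0.37), whereas de novo expanded library 1 lay above pre-malignant library 3 and the groups overlapped (-1.10, SE 0.42). The leukemic groups differed by -0.26 (SE 0.52). Without de novo expanded library 3, the fold change in de novo expanded over pre-malignant libraries was -0.79 and that between the leukemic groups -0.57. Per length, *Ccl3* was 4.62 to 13.5 times the level of *Ccl4*, and these ratios overlapped between all groups.

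*Cxcl2* (ENSMUSG00000058427.10, chromosome 5, 90903871 to 90905938, plus strand), the neutrophil attractant, had the largest fold changes of the members but few reads. The reads were 29, 60 and 73 in the pre-malignant, 14, 18 and 4 in the de novo expanded and 3, 10 and 2 in the stably expanded libraries. In CPM this was 2.20, 4.11 and 4.93, then 1.17, 1.16 and 0.261, then 0.196, 0.685 and 0.193. All leukemic libraries lay below all pre-malignant ones, and the leukemic groups overlapped. The log2 fold change was -2.17 (SE 0.61) in de novo expanded and -3.26 (SE 0.57) in stably expanded over pre-malignant libraries, on the scale of log2(normalized count + 1). With so few reads these values depend on the added 1. They were -2.29 and -3.54 with a pseudocount of 0.1, and -2.13 and -3.37 in DESeq2 on reads. On the main scale, the fold change of de novo expanded over pre-malignant libraries was -1.55 without de novo expanded library 3. With a mean of 8.21 normalized counts, *Cxcl2* was under the limit of 10 for the fit of stably over de novo expanded libraries. Stably expanded libraries 1 and 3 were at or under 3 reads, the limit that a count of 0 allows.

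*Ccl9*, the CCR1 ligand with the highest CPM among the chemokines, went the other way in the de novo expanded clones. Its level was 83.2, 81.5 and 90.0 CPM in the pre-malignant, 178, 185 and 144 CPM in the de novo expanded and 49.9, 122 and 116 CPM in the stably expanded libraries. All 3 de novo expanded libraries were above all 6 others. The log2 fold change was 1.00 (SE 0.12) in de novo expanded over pre-malignant libraries and -0.91 (SE 0.32) in stably over de novo expanded libraries. Stably expanded libraries fell on both sides of the pre-malignant ones (0.07, SE 0.27), with library 1 below and libraries 2 and 3 above. Without stably expanded library 1, the fold change over the pre-malignant libraries was 0.48 and that over the de novo expanded ones -0.50. The ratio of *Ccl9* to *Ccl3* per length was 0.359, 0.407 and 0.368 in pre-malignant libraries, 1.30, 1.07 and 2.19 in de novo expanded and 1.44, 0.864 and 1.06 in stably expanded libraries. It was thus lower in every pre-malignant library than in every leukemic one.

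*Ccl6*, the neighbour of *Ccl9* on the chromosome, was low and did not separate the groups. The reads were 13, 31 and 39 in the pre-malignant, 4, 32 and 6 in the de novo expanded and 19, 23 and 3 in the stably expanded libraries. All groups overlapped, and the log2 fold changes of -1.31 (SE 0.73), -0.998 (SE 0.64) and 0.32 (SE 0.86) in the 3 comparisons had errors of their own order. The first was -0.98 and the last -0.0020 without de novo expanded library 3.

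The 4 CC chemokine members lie within 91.8 kb of chromosome 11, from 83572919 to 83664683 in GRCm38.p6, in the order *Ccl9*, *Ccl6*, *Ccl3* and *Ccl4*. *Ccl9* (ENSMUSG00000019122.8, 83572919 to 83578636), *Ccl6* (ENSMUSG00000018927.3, 83587882 to 83593087) and *Ccl3* (ENSMUSG00000000982.5, 83647844 to 83649355) are on the minus strand, and *Ccl4* (ENSMUSG00000018930.3, 83662584 to 83664683) is on the plus strand. The annotation has 2 other genes between them. *E230016K23Rik*, a gene on the plus strand whose span contains *Ccl6*, had 8 reads in the 9 libraries together, and whether reads were counted by strand is not given in the sources used here. *Rpl9-ps1*, a ribosomal protein pseudogene next to *Ccl3*, had 24, 25 and 15 reads in the pre-malignant, 2, 8 and 15 in the de novo expanded and 0, 2 and 1 in the stably expanded libraries, and its reads are uncertain because it shares sequence with its parent gene. Within the cluster, the de novo expanded libraries were all above the pre-malignant ones for *Ccl9*, all below them for *Ccl3*, and overlapped with them for *Ccl6* and *Ccl4*.

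**Figure D2:**
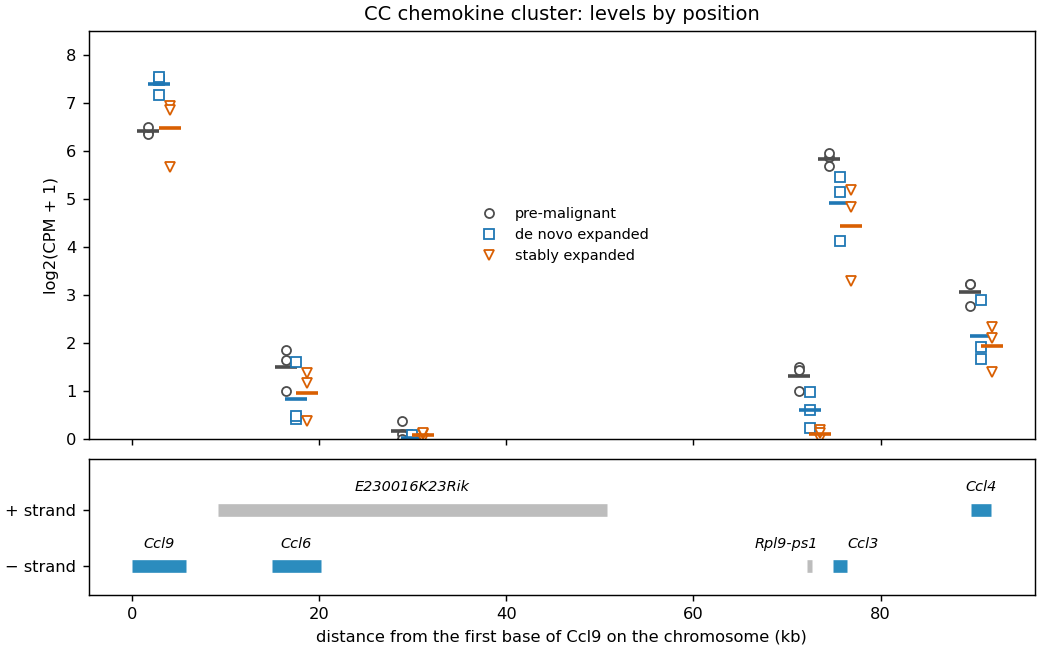
Levels of the genes of the CC chemokine cluster by their position. The upper panel gives log2(CPM + 1) of each library at the middle of each gene (circles pre-malignant, squares de novo expanded, triangles stably expanded, short bars means, the groups set side by side), and the lower panel gives the genes on both strands, members in blue and other genes in grey, against the distance in kb from the first base of *Ccl9*. The de novo expanded libraries are above the pre-malignant ones at *Ccl9*, and the leukemic libraries are below them at *Ccl3*.

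*Tnf* (ENSMUSG00000024401.14, chromosome 17, 35199381 to 35202007, minus strand) encodes a cytokine made as a membrane protein and shed from the surface. It was 16.0, 17.5 and 14.0 CPM in the pre-malignant, 15.4, 14.5 and 8.23 CPM in the de novo expanded and 6.79, 10.7 and 10.6 CPM in the stably expanded libraries. The stably expanded libraries lay below the pre-malignant ones, with a log2 fold change of -0.77 (SE 0.22), under 2-fold. The de novo expanded libraries 1 and 2 lay within the pre-malignant range and library 3 below it (-0.34, SE 0.26). Stably and de novo expanded libraries overlapped, with -0.41 (SE 0.31). Without de novo expanded library 3 these were -0.07 over the pre-malignant and -0.69 between the leukemic groups.

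*Il12a* (ENSMUSG00000027776.12, chromosome 3, 68690644 to 68698547, plus strand) set the stably expanded clone apart from both other groups. It was 27.6, 17.9 and 27.0 CPM in the pre-malignant, 27.7, 30.9 and 19.6 CPM in the de novo expanded and 11.5, 14.0 and 11.8 CPM in the stably expanded libraries. All 3 stably expanded libraries were below all 6 others. The log2 fold change was -0.93 (SE 0.20) in stably expanded over pre-malignant and -1.04 (SE 0.21) in stably over de novo expanded libraries. The pre-malignant and de novo expanded libraries overlapped (0.13, SE 0.24, and 0.31 without de novo expanded library 3).

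*Il1b* (ENSMUSG00000027398.13, chromosome 2, 129364570 to 129371139, minus strand) was at the floor of the measurement. Its reads numbered 5, 1 and 8 in the pre-malignant, 1, 8 and 0 in the de novo expanded and 0, 0 and 0 in the stably expanded libraries. A count of 0 allows up to 3 reads, which is 0.289 CPM in the shallowest stably expanded library, and this covers counting error only, since PCR copies are not independent molecules. Pre-malignant library 2 was itself under this limit, so no fold change is given.

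*Tgfb1* (ENSMUSG00000002603.15, chromosome 7, 25687002 to 25705077, plus strand) was the most abundant member. It was 364, 389 and 424 CPM in the pre-malignant, 360, 356 and 315 CPM in the de novo expanded and 345, 367 and 303 CPM in the stably expanded libraries. The log2 fold changes were -0.17 (SE 0.10) and -0.21 (SE 0.09) in de novo and stably expanded over pre-malignant libraries and -0.02 (SE 0.10) between the leukemic groups. By normalized counts the leukemic libraries lay below the pre-malignant ones, but in CPM stably expanded library 2 was above pre-malignant library 1, so the separation of the stably expanded group depends on the scaling. Without de novo expanded library 3 the fold change over the pre-malignant libraries was -0.12 in the de novo expanded group, and that between the leukemic groups -0.07.

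**Figure D3:**
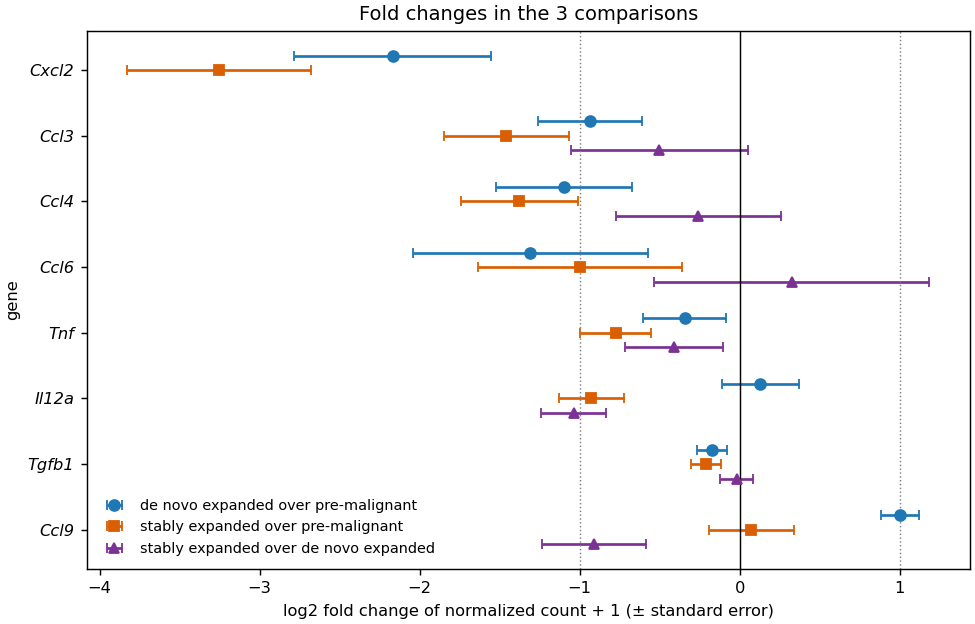
Log2 fold changes of the members with their standard errors in the 3 comparisons, on the scale of log2(normalized count + 1). Dotted lines mark 2-fold. Circles are de novo expanded over pre-malignant, squares stably expanded over pre-malignant and triangles stably over de novo expanded libraries, and *Il1b* and 1 point of *Cxcl2* are missing because they were under the limit for the fit. *Ccl9* is the member with a fold change of 1.00 above 0 in de novo expanded over pre-malignant cells.

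Most of the tested members, which were chosen on these libraries, had lower levels in the leukemic groups than in the pre-malignant one. The term called is used for a limma result with an adjusted p under 0.05 and a difference of 2-fold or more. In stably expanded over pre-malignant libraries, 8 of the 9 members had enough reads for the fit, 7 were lower and 1 was higher, and *Ccl3*, *Ccl4* and *Cxcl2* were called, where 2.75% of the 13968 genes tested were called, 1.55% as lower and 1.2% as higher. The stably expanded libraries lay wholly below the pre-malignant ones for 6 of the 8 by normalized counts, against 14.6% of all genes tested. In de novo expanded over pre-malignant libraries, 6 of 8 were lower and 2 higher, the groups did not overlap for 3 lower members and 1 higher member (8.5% and 10.6% of all genes), and no member was called, where 0% of the 14195 genes tested were called. In stably over de novo expanded libraries, 6 of 7 were lower and 1 higher, 2 of the lower ones and not the higher one were without overlap (4.95% and 4.66% of all genes, 9.61% in either direction), and no member was called, where 0.00727% of the 13758 genes tested were called. Without a limit on the adjusted p, 4 members had an unadjusted p under 0.05 in de novo expanded over pre-malignant libraries (11.3% of all genes). There were 6 in stably expanded over pre-malignant (25.4%) and 2 in stably over de novo expanded libraries (4.83%). In the same order, the median log2 fold change of the members was -0.64, -0.96 and -0.41, whereas that of all genes was 0.0079, 0.0042 and -0.0021. Of all genes tested, 49.0%, 49.5% and 50.4% were lower, again in that order. Nothing is read from these counts, since the members were chosen on the same libraries, and comparisons that share a group share its libraries.

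The calls of the members, which are a description only, rested on few libraries. All 3 calls in stably expanded over pre-malignant libraries were lost when the spread was estimated over all 9 libraries, with 0 called. *Ccl3* was also not called with edgeR, with DESeq2 or with a pseudocount of 0.1, which left *Ccl4* and *Cxcl2*. *Ccl4* was not called without stably expanded library 2, which left *Ccl3*, *Cxcl2* and *Il12a*. Leaving out pre-malignant library 1 or 3 or stably expanded library 1 left 1 call, *Cxcl2*, and leaving out pre-malignant library 2 left *Il12a* as the 1 call. Without de novo expanded library 3, *Ccl9* was called in de novo expanded over pre-malignant libraries and *Il12a* in stably over de novo expanded libraries, 1 call each. Across libraries, stably expanded library 1 was the lowest of the 9 for 5 of the 8 members with enough reads and stably expanded library 3 for the other 3, while pre-malignant library 3 was the highest for 4.

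Genes with a profile most like each member over the 9 libraries were taken by the smallest root mean square difference of standardised log2(CPM + 1), among 14032 genes. For *Ccl3* these included *Klf2* (0.230) and *Mndal* (0.231), and for *Tnf* they were *Rara* (0.203), *Mndal* (0.258) and *Ifrd1* (0.260). *Klf2* is also on the list of immediate early genes. For *Ccl4* they were *Gm21738* (0.283), *Jchain* (0.300) and *Stac3* (0.310), and for *Ccl6* they were *Fbxo28* (0.312), *Gm42636* (0.318) and *P2rx7* (0.356). For *Ccl9* they were *Smyd4* (0.205), *Ttc27* (0.285) and *Ankrd37* (0.328), for *Il12a* *Satb1* (0.255), *Crim1* (0.277) and *Rgs1* (0.339), and for *Tgfb1* *C1galt1c1* (0.231), *Spop* (0.297) and *Depdc7* (0.304). Among the members themselves, *Ccl3* and *Tnf* were the closest pair at 0.417, closer than *Ccl3* and its neighbour *Ccl4* at 0.617. *Ccl9* was 1.02 to 1.61 from the others. With 9 libraries and many genes compared, such likeness is a description only.

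The other genes of these pathways were taken from 9 lists of 159 genes, 158 of which are in the tables. In stably expanded over pre-malignant libraries, 73 had enough reads, 3 passed the test as higher and 5 as lower, which is 11.0% of them against 2.75% of all genes. Their median log2 fold change was 0.04, against 0.0042 for all genes. In the other comparisons none of the 74 and 73 tested genes was called by limma or by edgeR or DESeq2. By limma, 0% and 0.00727% of all genes were called there. An unadjusted p under 0.05 in limma was found for 8 and 6 of the listed genes, against 11.3% and 4.83% of all genes tested.

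**Figure D4:**
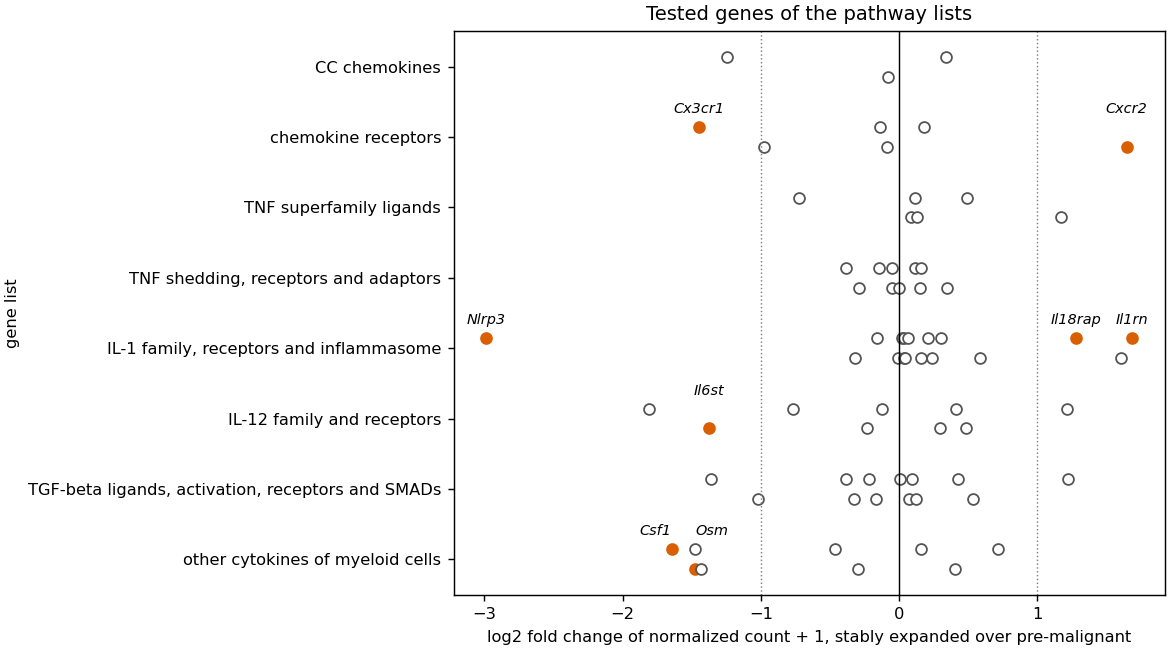
Log2 fold change in stably expanded over pre-malignant libraries of the tested genes of 8 pathway lists, on the scale of log2(normalized count + 1). Each circle is a gene, filled and named where it was called, and dotted lines mark 2-fold. The list of CXC chemokines is missing because none of its 14 genes had enough reads. Of the 73 genes, 3 were called as higher and 5 as lower.

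Most other chemokine genes were at low levels. Of 14 other CXC chemokine genes, 13 had a read and none reached the limit for the fit. Of 19 other CC and related chemokine genes, *Ccl2*, *Ccl25* and *Ccl27a* could be fitted. *Ccl25*, a thymus and gut chemokine, was the highest of them at 13.8 to 23.2 CPM and had a log2 fold change of -0.08 (SE 0.21) in stably expanded over pre-malignant libraries. *Ccl2*, which recruits monocytes through CCR2, was at 0.0653 to 1.84 CPM, and its log2 fold change in that comparison was -1.24 (SE 0.51, adjusted p = 0.155 in limma).

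Of the 6 tested chemokine receptor genes, 1 passed the test as higher and 1 as lower in stably expanded over pre-malignant libraries. *Ccr1*, looked at after its values were seen as the receptor gene for CCL3 and CCL9, was 34.8 to 46.8 CPM in the pre-malignant, 27.8 to 71.6 CPM in the de novo expanded and 31.6 to 47.8 CPM in the stably expanded libraries. Its groups overlapped, with log2 fold changes of 0.30 (SE 0.34), -0.09 (SE 0.17) and -0.37 (SE 0.35) in the 3 comparisons. *Cxcr2*, the receptor for CXCL2, rose in stably expanded over pre-malignant libraries by a log2 fold change of 1.64 (SE 0.40, adjusted p = 0.0325 in limma). It was 2.73, 1.16 and 1.42 CPM in the pre-malignant, 0.834, 2.70 and 2.09 CPM in the de novo expanded and 6.72, 5.41 and 4.14 CPM in the stably expanded libraries. All 3 stably expanded libraries were above all others. *Cxcr2* is also on the list of mature neutrophil genes, whose sum was higher in the same libraries. *Cx3cr1*, the fractalkine receptor of monocytes, fell by 1.45 on the log2 scale (SE 0.34, adjusted p = 0.0305 in limma). It was 7.21, 8.83 and 16.1 CPM in the pre-malignant, 6.43, 4.18 and 0.522 CPM in the de novo expanded and 4.96, 2.88 and 3.37 CPM in the stably expanded libraries, so that all leukemic libraries were below all pre-malignant ones. *Cxcr4*, the receptor for CXCL12, was at 119 to 197 CPM, with a log2 fold change of 0.18 (SE 0.14).

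*Ccr2*, the receptor for CCL2, was split within the de novo expanded group. It was 65.4, 69.8 and 92.1 CPM in the pre-malignant, 197, 183 and 17.5 CPM in the de novo expanded and 18.6, 72.4 and 40.3 CPM in the stably expanded libraries. The de novo expanded libraries 1 and 2 were above all others, whereas library 3 was the lowest of all. In de novo expanded over pre-malignant libraries the log2 fold change was 0.21 (SE 0.84, adjusted p = 0.946 in limma) with all libraries and 1.35 (adjusted p = 0.00110) without de novo expanded library 3. In stably over de novo expanded libraries it was -1.17 (adjusted p = 0.897) with all libraries and -2.31 (adjusted p = 0.0141) without that library. Leaving out that library took the calls over all genes from 0 to 214 in the former and 1 to 508 in the latter comparison. Over all other settings the adjusted p of *Ccr2* ran from 0.00110 to 0.991 in the former and from 0.0141 to 1.00 in the latter comparison.

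Among TNF superfamily ligands, none of the 6 tested genes was called. *Tnfsf13b*, which encodes the B cell survival factor BAFF, was 1.10 to 1.44 CPM in the pre-malignant and 2.22 to 4.24 CPM in the stably expanded libraries (log2 fold change 1.17, SE 0.41, adjusted p = 0.104 in limma). *Ltb*, the lymphotoxin beta gene, was 0.890 to 2.58 CPM in the pre-malignant and 0.0834 to 0.392 CPM in the de novo expanded libraries (-2.38, SE 0.65, adjusted p = 0.372 in limma). The latter held 1, 4 and 6 reads of *Ltb*, near the 3 reads that a count of 0 allows. *Tnfsf13* was 1.49 to 2.28 CPM against 0.0834 to 1.31 CPM in the same groups (-1.62, SE 0.86), with 1 read in de novo expanded library 1. *Tnfsf10* and *Tnfsf14*, the most abundant ligands, had fold changes of 0.49 (SE 0.35) and 0.09 (SE 0.25) in stably expanded over pre-malignant libraries. None of the 10 tested genes for TNF shedding, receptors and adaptors was called either. The receptors *Tnfrsf1a* (76.8 to 116 CPM) and *Tnfrsf1b* (53.2 to 86.5 CPM) had fold changes of -0.15 (SE 0.14) and 0.35 (SE 0.12) in that comparison, and *Rhbdf2*, a cofactor of the TNF sheddase, had -0.39 (SE 0.15). *Ripk1* and *Casp8*, which encode the kinase and the protease downstream of the receptor, were at 138 to 167 CPM and 106 to 149 CPM, and the fold change of *Ripk1* was -0.05 (SE 0.09).

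The interleukin-1 list held the largest fold change of the listed genes. *Nlrp3*, which encodes the inflammasome sensor for processing of pro-interleukin-1 beta, fell by 2.99 on the log2 scale in stably expanded over pre-malignant libraries (SE 0.45, adjusted p = 0.00607 in limma). It was 44.7, 48.1 and 56.2 CPM in the pre-malignant, 15.9, 37.2 and 2.81 CPM in the de novo expanded and 3.78, 16.6 and 3.66 CPM in the stably expanded libraries, and all leukemic libraries were below all pre-malignant ones. *Il1rn*, the gene of the interleukin-1 receptor antagonist, rose by 1.69 (SE 0.28, adjusted p = 0.00877 in limma), from 2.73, 3.15 and 3.11 CPM to 13.1, 7.81 and 9.06 CPM. *Il18rap*, a subunit of the interleukin-18 receptor, rose by 1.28 (SE 0.24, adjusted p = 0.0121 in limma), from 27.3, 24.2 and 14.1 CPM to 61.3, 52.1 and 41.1 CPM. Its partner *Il18r1* was 0.135 to 0.822 CPM and 0.274 to 2.54 CPM in these groups (1.603, SE 0.86, adjusted p = 0.275 in limma), with 3, 12 and 2 and then 39, 4 and 17 reads. For *Il1rn* and *Il18rap*, de novo expanded library 3 was above the other 2 of its group, at 6.92 and 56.9 CPM, whereas for *Nlrp3* it was the lowest of its group. The other 14 tested genes of the list did not pass, among them *Gsdmd*, the pore former of pyroptosis (0.16, SE 0.11), and the kinase gene *Irak1* (0.02, SE 0.09).

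In the interleukin-12 list, *Il6st*, which encodes the shared receptor chain gp130, fell by 1.37 on the log2 scale (SE 0.25, adjusted p = 0.0116 in limma). It was 72.5, 90.6 and 110 CPM in the pre-malignant, 91.6, 102 and 13.9 CPM in the de novo expanded and 23.2, 54.6 and 32.4 CPM in the stably expanded libraries. *Il23a*, the gene of the p19 subunit of interleukin-23, was 0.890 to 2.88 CPM in the pre-malignant and 0.0653 to 0.480 CPM in the leukemic libraries (adjusted p = 0.102 for the stably and 0.372 for the de novo expanded group in limma). The leukemic libraries held 1 to 7 reads of *Il23a*, near the 3 reads that a count of 0 allows. *Il27* was 0.129 to 2.70 CPM over all libraries. The kinase genes *Jak2* and *Tyk2* had fold changes of -0.12 (SE 0.10) and -0.23 (SE 0.09) in stably expanded over pre-malignant libraries.

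None of the 13 tested genes for TGF-beta activation, receptors and signaling was called in that comparison. *Nrros*, which encodes the protein that anchors latent TGF-beta on myeloid cells, was 192 to 249 CPM and had a log2 fold change of -0.22 (SE 0.08, adjusted p = 0.142 in limma), close in size to the -0.21 of *Tgfb1*. *Furin*, the gene of the protease that cleaves the precursor, had -0.16 (SE 0.13). *Ltbp2* (1.22, SE 0.60), *Thbs1* (-1.36, SE 0.96) and *Tgfbr3* (not fitted) were all under 4 CPM.

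Of the other cytokines of myeloid cells, 6 of 9 tested genes were lower in stably expanded than in pre-malignant libraries and 3 were higher. Of the lower ones, 2 passed the test. *Osm*, the gene of oncostatin M, fell by 1.48 on the log2 scale (SE 0.23, adjusted p = 0.00730 in limma), at 24.9, 31.4 and 30.1 CPM in the pre-malignant, 18.5, 19.5 and 5.75 CPM in the de novo expanded and 8.55, 15.3 and 8.09 CPM in the stably expanded libraries. *Csf1*, the gene of macrophage colony-stimulating factor, fell by 1.64 (SE 0.29, adjusted p = 0.0103 in limma), at 19.7, 19.1 and 27.6 CPM, then 16.6, 20.1 and 7.58 CPM, then 4.44, 10.7 and 6.94 CPM. Both had all stably expanded libraries below all pre-malignant ones. *Hbegf* had a fold change of similar size (-1.48, SE 0.46, adjusted p = 0.0748 in limma). *Grn*, the progranulin gene, was 226 to 280 CPM and 304 to 353 CPM in these groups, a change of 0.40 (SE 0.11, adjusted p = 0.0476 in limma) that was under 2-fold. *Il16* had -0.30 (SE 0.11).

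**Figure D5:**
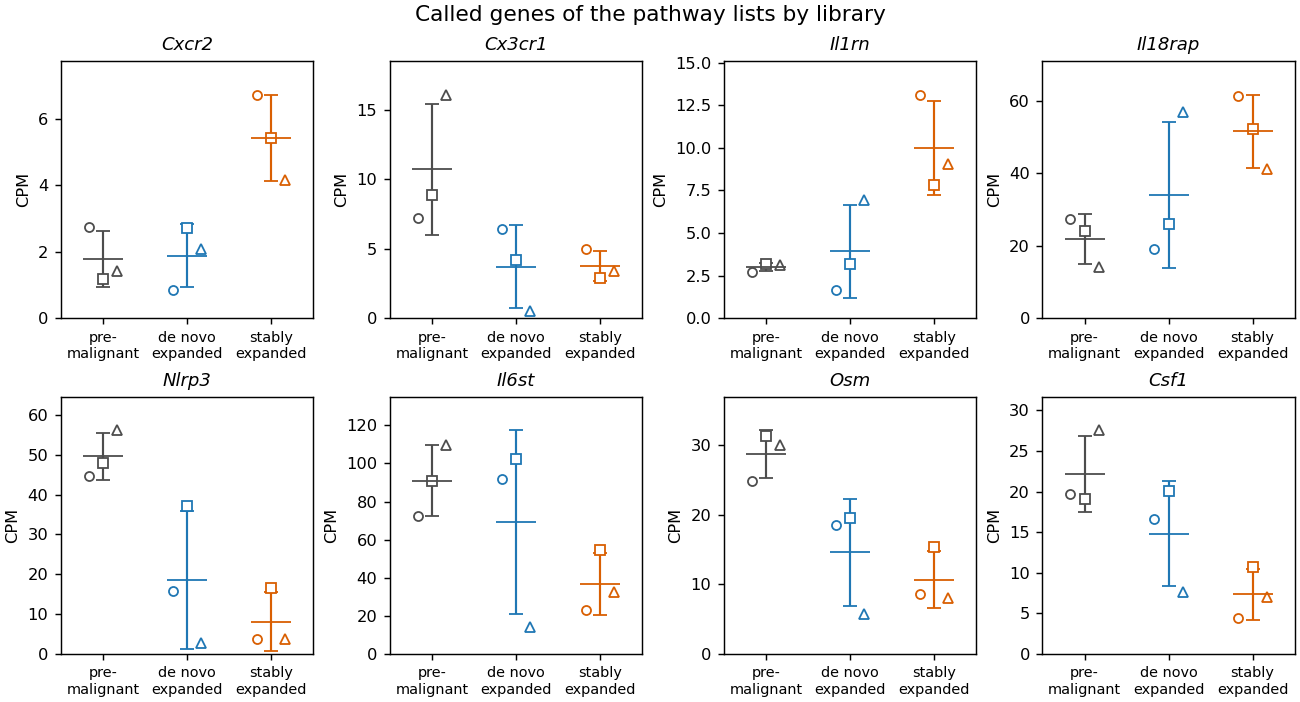
CPM of the 8 called genes of the pathway lists in each library, by group. Open circles, squares and triangles are libraries 1, 2 and 3 of a group, horizontal bars are means and error bars are SD (n = 3). Every axis starts at 0 and has its own range. De novo expanded library 3 is the lowest of the 9 for *Nlrp3*, *Il6st*, *Osm* and *Cx3cr1*.

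The calls of these 8 genes were lost when the spread was estimated over all 9 libraries, where the adjusted p was 0.0899 for *Csf1*, 0.116 for *Il1rn*, 0.122 for *Nlrp3*, 0.130 for *Osm*, 0.134 for *Cxcr2*, 0.136 for *Il18rap*, 0.282 for *Il6st* and 0.327 for *Cx3cr1*. *Csf1*, *Il1rn*, *Nlrp3* and *Osm* were called under each of the 13 other settings. Leaving out pre-malignant library 2 or 3 left 5 calls each, *Cxcr2* and *Cx3cr1* being lost in both, *Il6st* in the first and *Il18rap*, then under 2-fold, in the second. *Cxcr2* was also lost without stably expanded library 1 or 2, and *Cx3cr1* without stably expanded library 2 or 3.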

How the data were processed

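RNA-Seq libraries were made from sorted splenocytes with the SMARTer Stranded Total RNA-Seq v3 Pico kit, and all 9 were used. According to the methods and processing notes, the authors ran nf-core/rnaseq with Trim Galore 0.6.4, STAR 2.6.1d and featureCounts 1.6.4 on GRCm38.p6, and normalized with DESeq2. The deposited values are normalized counts, a signal of reads divided by size factors, in 3 tables of 6 libraries. Columns with the authors' own fold changes and p-values were not used. Whole reads were recovered for at least 99.98% of values to within 0.05 reads and gave CPM. They range from 10379739 to 15551196 per library, so a count of 0 allows up to 3 reads, or 0.193 to 0.289 CPM. limma 3.58.1 with a trend was run in R 4.3.3 on log2(normalized count + 1), for genes with a mean of at least 10 over the 6 libraries of a comparison, with Benjamini-Hochberg adjustment over all of them. Calls needed an adjusted p under 0.05 and a 2-fold difference. edgeR 4.0.16 and DESeq2 1.42.0 on recovered reads, other pseudocounts and filters, quantile normalization, 1 fit of 9 libraries and leaving out each library were alternatives. The fits were tested on simulated data. Members and lists were chosen with earlier results of these data known. Listed genes were named when called, when among the 3 largest fold changes of a list or when among its 2 most abundant genes. The reference genome provided was of another build and was not used. A few genes that the rules would name are not reported here.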

Additional observations from a re-analysis of the deposited data

How the results depend on the processing

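No paired analysis was possible because the columns of the tables carry no clone, mouse or replicate number within a group. Depth limited *Il1b*, *Ccl6* and *Cxcl2*, with at most 8, 39 and 73 reads in a library. Of the fold changes of members under other settings, 311 of 316 moved by less than the SD between libraries and 5 by more, and 13 values in 6 of 23 fold changes had the other sign, none of them a called change. Members called in de novo expanded over pre-malignant libraries went from 0 to 1 (*Ccl9*) with no filter on low values and were 0 to 1 when a library was left out. The 3 members called in stably expanded over pre-malignant libraries became 0 in 1 fit of all 9 libraries and were 1 to 3 when a library was left out. In stably over de novo expanded libraries 0 became 1 (*Il12a*) with DESeq2 and was 0 to 1 when a library was left out. Called genes of the pathway lists were 0 to 1, 5 to 8 and 0 to 7 in these comparisons when a library was left out, the 7 without de novo expanded library 3, and the 8 became 0 in 1 fit of all 9 libraries. Over all genes, the counts called were 0, 384 and 1 in limma, 0, 377 and 1 in edgeR, 62, 531 and 32 in DESeq2, 5, 6 and 2 in 1 fit of all 9 libraries, and 214 and 508 in the first and last comparison without de novo expanded library 3. With no filter they were 5, 525 and 2. Without 1 other library they were 0, 206 to 452 and 0 to 2. The cause of these changes was not tested.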
